A study of Homo sapiens with 4 samples.

Results

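The genes examined here encode 10 factors that hold RNA polymerase II at the pause site or release it from there: HEXIM1, LARP7, MEPCE, AFF1, AFF4, ELL, ELL2, NELFA, NELFB and SUPT5H. They were picked by gene symbol from the authors' deposited table for MDA-MB-231 Fluc cells, and all 10 had a row among its 13957 genes. MDA-MB-231 is a line derived from a triple-negative breast tumour, and the Fluc derivative carries an inserted luciferase gene for imaging. In this experiment 2 samples were exposed to 50 μM cordycepin, the adenosine analogue 3′-deoxyadenosine, and 2 samples received the DMSO vehicle, in each case for 2 h. Total RNA was depleted of ribosomal RNA and sequenced from stranded libraries.

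After initiation, polymerase II often stops a short distance downstream of the start site, where DSIF and NELF bind it and hold it. The kinase P-TEFb, made of CDK9 and a cyclin T, phosphorylates both factors and the polymerase itself, after which NELF leaves and elongation resumes. P-TEFb is kept inactive in a small ribonucleoprotein built on 7SK RNA, and it is active as part of the super elongation complex, which is assembled on AFF scaffold proteins. In cancer cells rapid induction of growth-related transcription factors is known to depend on this step.

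The values per gene used here are 1 mean level, given by the authors as log2 CPM (a read count scaled to the size of its library) over the 4 libraries, and 1 gene length. The level therefore pools treated and vehicle samples. No value per library was used, so the depth and the spread between duplicates are unknown, no SD can be given, and the effect of cordycepin on these genes was not analysed here. For the same reason neighbours in the orders below cannot be told apart from one another beyond their spread, and every comparison is a description without a test. Folds between genes were taken only per length, as log2 CPM less the log2 of the gene length in kb. Medians, counts, ranks and percentiles of the level itself are not corrected for length. Percentiles give the share of genes in the table at or below a value.

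The labelled cell line was checked against marker genes. All 8 genes listed as present in MDA-MB-231 cells had a row, from FOSL1 at 8.58 log2 CPM (percentile 97.2) to AXL at 11.01 (percentile 99.8), and they included VIM, CD44 and EGFR. The hormone receptor genes ESR1 and PGR and the markers of leukocytes, endothelium and hepatocytes (PTPRC, CD3E, PECAM1, VWF and ALB) gave no value and were not analysed. The epithelial genes CDH1 and EPCAM were both at 3.68 log2 CPM, below the table median. GATA3, at 4.48 log2 CPM, was also below it. The other luminal genes with a value were above it and went against the list, which gave them too as low or absent in this line. ERBB2 was at 6.49 log2 CPM (percentile 81.8), KRT18 at 8.12 (percentile 95.5) and KRT8 at 9.11 (percentile 98.4).

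The members ranged from 3.73 log2 CPM (percentile 36.3) to 7.57 log2 CPM (percentile 92.6). Their median level was 5.66 log2 CPM, compared with 4.58 for all genes of the table and 4.95 for its 11603 protein-coding genes. Of the 10 genes, 8 were above the table median and 4 (NELFB, SUPT5H, AFF4 and HEXIM1) were above its upper quartile of 6.05. Of the 11603 protein-coding genes, 6595 were above the same median. Per length the median of the members was 3.54 log2 CPM per kb against 2.43 for all genes, with 7 members above the latter. So were 6007 of the protein-coding genes. With the lengths of the table the highest and lowest members differed 27.7-fold per length, and the size of this gap depends on the length used. Per length NELFB was the highest and ELL the lowest, and these places held for the length in the table, the canonical transcript, the longest transcript and the coding length.

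**Figure D1:**
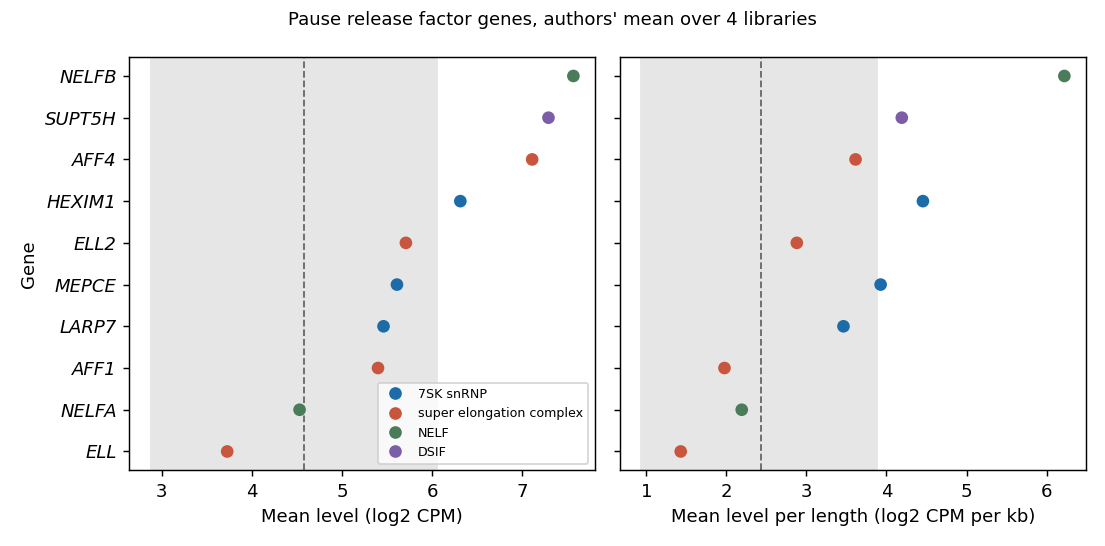
Mean level of each of the 10 genes (points, coloured by complex) as log2 CPM on the left and as log2 CPM per kb of gene length on the right, each the authors' mean over 4 libraries with no error available; the left panel is not corrected for length. Grey bands span the quartiles of the 13957 genes and dashed lines mark their medians of 4.58 and 2.43; AFF4 has rank 3 by level and rank 5 per length, while HEXIM1 has rank 4 by level and rank 2 per length.

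The promoters of these genes were described by their sequence. RefSeq windows from 250 bases before to 50 bases after the start site were found for 9 of the 10 genes (GRCh38.p14), all but ELL2. The RefSeq start was within 46 bases of the start in the table for 7 of these, and it differed by 9426 bases for SUPT5H and 32929 bases for NELFA. GC content was between 57.7% (LARP7) and 79.3% (NELFB), with a median of 67.7% compared with 65.3% for genes of the table. The ratio of observed to expected CpG had a median of 1.03 against 0.85, and 7 of the 9 windows were above the latter.

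**Figure D2:**
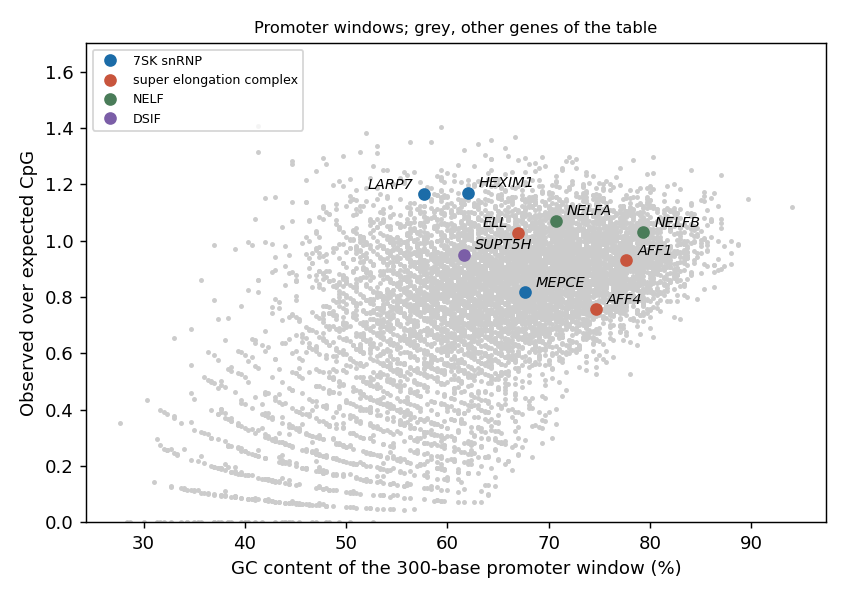
GC content (x axis, %) against the ratio of observed to expected CpG (y axis) of 300-base promoter windows for genes of the table (grey) and 9 of the genes described (coloured by complex). HEXIM1 has the highest CpG ratio of the 9 (1.17), and AFF4 the lowest (0.76).

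A search of both strands of these windows found the GC box GGGCGG in 8 of 9, compared with 71.1% of promoters of genes in the table and 45.0% of all promoters. CCAAT was in 4 of 9 windows (37.1% and 34.6%), and the core of the NRF1 motif, GCATGCGC, in 2 of 9 (5.67% and 3.05%). The E-box CACGTG was present in AFF4 alone of the 9 (10.1% and 7.26%) and the ETS motif CCGGAAG in NELFA alone (20.2% and 10.3%). The TATA box TATAAA was found in HEXIM1 alone, starting 29 bases before the start site, and is present in 5.25% of promoters of genes in the table and 11.5% of all promoters. The form TATATAA, which was added to the search after the windows had been read and overlaps TATAAA in HEXIM1, was in 2 of 9 windows and in 1.11% and 2.57% of promoters. Because TATATAA was chosen after these windows had been read, its count in them cannot be weighed against those shares. TATATAA begins 31 bases before the start of HEXIM1 and 30 bases before that of MEPCE. The window of LARP7, the other gene of the 7SK particle, holds neither TATAAA nor TATATAA. A match describes the sequence and is not evidence of binding. The 100 bases before the start are given for these 2 genes and, for contrast, for NELFB, the member with the highest level per length, which has 3 complete GC boxes in this stretch and no TATA box. Capitals mark the motifs listed, on either strand.

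HEXIM1: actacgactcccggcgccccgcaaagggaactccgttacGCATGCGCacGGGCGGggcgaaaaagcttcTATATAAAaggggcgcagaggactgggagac
MEPCE: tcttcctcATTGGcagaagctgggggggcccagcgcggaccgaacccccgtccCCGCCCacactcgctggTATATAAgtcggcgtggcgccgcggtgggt
NELFB: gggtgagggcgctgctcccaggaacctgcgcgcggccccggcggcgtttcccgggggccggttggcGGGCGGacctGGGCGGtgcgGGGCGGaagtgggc

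The windows are chr17:45148375-45148474 for HEXIM1, chr7:100428690-100428789 for MEPCE and chr9:137255227-137255326 for NELFB, all on the plus strand of GRCh38.p14.

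The 3 genes of the 7SK particle lay close together. HEXIM1, whose product inhibits P-TEFb once it is bound to 7SK RNA, had a mean level of 6.31 log2 CPM (79.5 CPM, percentile 79.1). MEPCE, which caps the 5′ end of 7SK RNA with a methyl group, was at 5.61 log2 CPM (percentile 67.5). LARP7, which binds the 3′ end of 7SK RNA and stabilises it, was at 5.46 log2 CPM (percentile 64.9). On the scale per length HEXIM1 was at 4.46, MEPCE at 3.93 and LARP7 at 3.46 log2 CPM per kb, a range of 1.99-fold and, with the lengths of the table, the narrowest of the complexes with 3 or more genes considered. With the GENCODE exonic length of LARP7 (8094 bases) HEXIM1 was 4.03-fold above it. HEXIM1 stood above LARP7 by 0.99 in log2 level per kb, but by 0.07 when the canonical transcript of LARP7 (2107 bases) replaced its length in the table (3996 bases). The second HEXIM gene, HEXIM2, and 7SK RNA itself (RN7SK) gave no value and were not analysed.

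These inhibitors can be set beside the kinase they hold. CDK9, the catalytic subunit of P-TEFb, was at 5.20 log2 CPM, and its cyclins CCNT1 and CCNT2 were at 4.64 and 4.43. Per length CDK9 was at 3.61 log2 CPM per kb, whereas CCNT1 was at 1.76 and CCNT2 at 1.25, both below the table median. HEXIM1 was 1.79-fold above CDK9 per length, and between 1.48-fold and 2.24-fold above it over the lengths tried. Among the 3 genes of P-TEFb the range per length was 5.16-fold with the lengths of the table. It was narrower with the coding lengths, which put CDK9 at 5.04, CCNT1 at 3.52 and CCNT2 at 3.30 log2 CPM per kb.

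In the super elongation complex, AFF4 and AFF1 are alternative scaffolds to which P-TEFb, the ELL proteins and the YEATS proteins bind. AFF4 had a mean level of 7.11 log2 CPM (138.1 CPM, percentile 88.6) and AFF1 had 5.40 (42.2 CPM, percentile 63.9). Per length AFF4 was at 3.61 and AFF1 at 1.98 log2 CPM per kb, so that AFF4 was 3.11-fold higher, and between 3.11-fold and 3.42-fold higher over the lengths tried. Of the remaining AFF genes, AFF3 was at 2.07 log2 CPM, or -1.90 per kb, in the lowest 1.17% of genes per length, and AFF2 was not analysed. AFF1 was 14.7-fold above AFF3 per length, and between 10.1-fold and 14.7-fold over the lengths tried.

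ELL and ELL2 increase the rate of elongation once bound to the scaffold. ELL2 was at 5.71 log2 CPM (52.3 CPM, percentile 69.3), while ELL was at 3.73 (13.2 CPM, percentile 36.3). Per length the values were 2.88 for ELL2 and 1.43 log2 CPM per kb for ELL. ELL2 was 2.73-fold higher, with 2.69-fold to 3.83-fold over the lengths tried. ELL3 and EAF2 gave no value, and EAF1, a partner of the ELL proteins, was at 1.75 log2 CPM per kb. The YEATS genes, which link the complex to acetylated chromatin, were far apart, with MLLT1 at 5.06 and MLLT3 at 0.13 log2 CPM per kb.

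NELF is built of 4 subunits, of which NELFA and NELFB belong to the 10 genes. NELFB was at 7.57 log2 CPM (189.6 CPM, percentile 92.6), and NELFA was at 4.53 (23.1 CPM, percentile 49.1). Per length NELFB was at 6.22 and NELFA at 2.19 log2 CPM per kb, a 16.3-fold difference. The size of this gap depends on the length of NELFA, whose gene model in the table has 5057 bases although its canonical transcript has 2198. Over the lengths tried NELFB was between 6.90-fold and 16.3-fold higher. With the lengths of the table, NELFE was at 5.41 and NELFCD at 4.70 log2 CPM per kb, nearer to NELFB than NELFA was. With the canonical transcripts NELFE was at 6.29, NELFB at 6.22, NELFCD at 6.20 and NELFA at 3.39. With the coding lengths the values were 6.63, 6.65, 6.56 and 3.87 in the same order. NELFA was the lowest of the 4 each time, while the place of NELFB among the others depended on the length.

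DSIF is a dimer of SPT5, encoded by SUPT5H, and SPT4, encoded by SUPT4H1. SUPT5H was at 7.29 log2 CPM (156.5 CPM, percentile 90.3) and SUPT4H1 was at 3.05 (percentile 27.0). Per length SUPT5H was at 4.19 and SUPT4H1 at 1.99 log2 CPM per kb. The large subunit was 4.58-fold above the small one, with values between 2.03-fold and 7.95-fold over the lengths tried. POLR2A, the largest subunit of the polymerase that DSIF binds, was at 4.85 log2 CPM per kb.

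**Figure D3:**
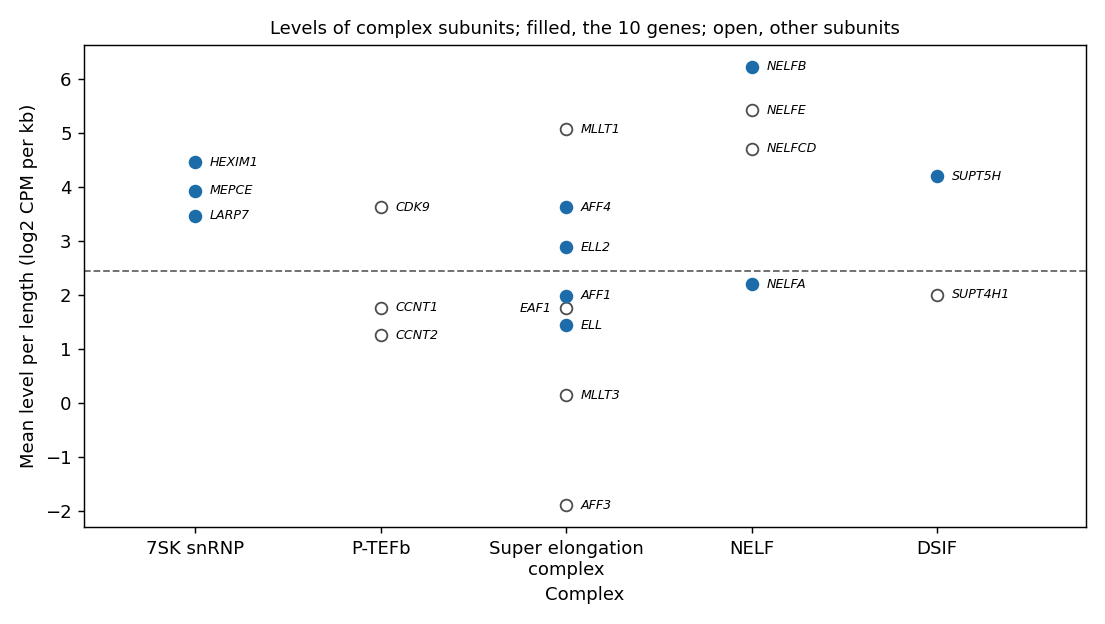
Mean level per length (log2 CPM per kb) of subunit genes grouped by complex, with filled circles for the 10 genes and open circles for other subunits; the dashed line is the median of 2.43 over all genes and no error is available. With these lengths, which are those of the table, the 7SK particle has the narrowest range, from 3.46 to 4.46, and NELFA at 2.19 sits apart from the other NELF subunits, which lie between 4.70 and 6.22.

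As the order per length rests on the length chosen, levels were recalculated with the lengths of GENCODE release 44. The length in the table was within 10% of the GENCODE exonic length for 88.5% of genes, and for LARP7 it was 3996 against 8094 bases. With the length of the canonical transcript 7 of the 10 genes took another place in the order, with the longest transcript 4 and with the coding length 3. SUPT5H rose above HEXIM1 with the canonical transcript (5.41 against 4.46 log2 CPM per kb), and with the coding length it was below HEXIM1 again (5.58 against 6.21). AFF1 had rank 9 with each of these lengths. The coding length of HEXIM1 is 1077 bases of a transcript of 3625, and its value went from 4.46 to 6.21 log2 CPM per kb when coding bases alone were counted. That of ELL2 went from 2.88 to 4.77 log2 CPM per kb.

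**Figure D4:**
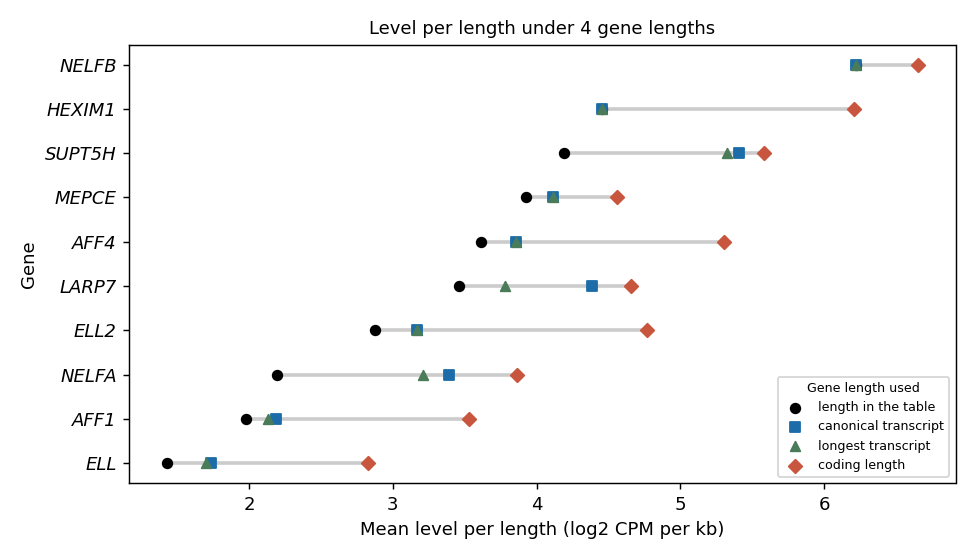
Mean level per length (log2 CPM per kb) of the 10 genes with 4 gene lengths, shown as black circles for the table, blue squares for the canonical transcript, green triangles for the longest transcript and red diamonds for the coding length; grey bars join the lowest and highest value, and equal values overlie each other. NELFB is highest and ELL lowest with each, while SUPT5H ranges from 4.19 to 5.58.

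The genes lie on 6 chromosomes and differ in structure. HEXIM1 (chromosome 17, 45148475 to 45152099, plus strand, GRCh38) is a gene of a single exon, as are 219 (1.89%) of the protein-coding genes of the table. AFF1 (chromosome 4, 86935002 to 87141054, plus strand) spans 206038 bases in GENCODE, of which 94.7% are outside annotated exons. AFF4 (chromosome 5, 132875395 to 132963634, minus strand) has 21 exons in its canonical transcript, as does AFF1. ELL2 (95885098 to 95961851, minus strand) is on chromosome 5 as well, and has 12 exons like its paralogue ELL (chromosome 19, 18442663 to 18522116, minus strand). LARP7 (112637107 to 112657592, plus strand) and NELFA (1982717 to 2041903, minus strand) share chromosome 4 with AFF1. SUPT5H (chromosome 19, 39436156 to 39476670, plus strand) has 30 exons, the most of the members, and lies 45001 bases from PAF1 on the minus strand, which encodes a subunit of the elongation complex that acts after pause release. NELFB (chromosome 9, 137255327 to 137273542, plus strand) has 13 exons and 1 annotated transcript, and MEPCE (chromosome 7, 100428790 to 100434118, plus strand) has 4 exons. The median span of the 10 genes was 49851 bases compared with 34275 for the protein-coding genes of the table, and their median number of exons was 12.5 compared with 9.

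**Figure D5:**
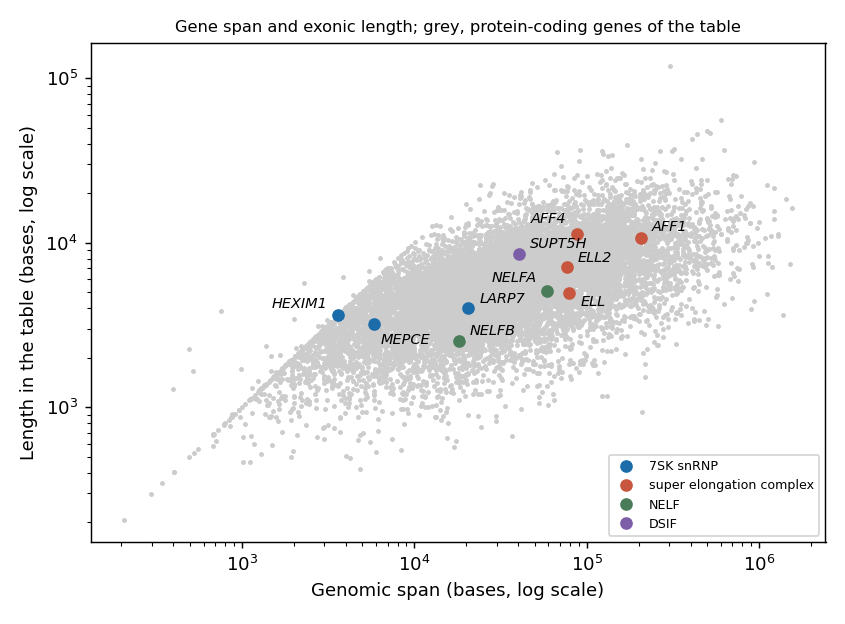
Genomic span (x axis, bases, log scale) against the gene length in the table (y axis, bases, log scale) for protein-coding genes (grey) and the 10 genes (coloured by complex). HEXIM1 lies where span and length are equal (3625 bases), and AFF1 has the largest span of the members.

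Several of these genes have close relatives, so reads could be assigned to more than 1 place. Each 75-base stretch of the canonical transcripts, the length of a read, was looked up in the transcripts of all other genes in GENCODE. For HEXIM1, AFF1, AFF4, ELL, NELFA, NELFB and SUPT5H no stretch was found elsewhere. The longest identical runs within coding sequences are shown in capitals, with 8 bases on each side in lower case, because they show how short the shared stretches are (GENCODE release 44, 5′ to 3′).

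AFF4: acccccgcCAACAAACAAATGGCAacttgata
AFF1: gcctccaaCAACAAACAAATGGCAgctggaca
ELL2: agcgctatGGGCTGTCGTGCGGacggctgg
ELL: ggagctacGGGCTGTCGTGCGGgcgggtta
HEXIM1: tccgagccGAGATGTTCGCCAAgggccagc
HEXIM2: tccgcgaaGAGATGTTCGCCAAaggccagc

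The run shared by AFF4 and AFF1 is 16 bases long, at coding positions 1403 to 1418 of AFF4 and 1547 to 1562 of AFF1, counted from 1 at the first base of the start codon. That of ELL2 and ELL is 14 bases (positions 46 to 59 and 31 to 44), and that of HEXIM1 and HEXIM2 is also 14 bases (574 to 587 and 388 to 401). All are far below the read length, so no read of the full length is common to both paralogues in their coding sequences.

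For ELL2 a processed pseudogene shares longer stretches. ELL2P1 on chromosome 1, at 158175850 to 158177755 on the minus strand (GRCh38), has its own row in the table at 2.20 log2 CPM (percentile 16.8). Of 5752 stretches of 75 bases in the ELL2 transcript, 203 (3.53%) also occur in ELL2P1, all of them in the coding sequence of ELL2. The longest run common to both is 146 bases, at coding positions 1647 to 1792 of ELL2, and is given in capitals below.

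ELL2: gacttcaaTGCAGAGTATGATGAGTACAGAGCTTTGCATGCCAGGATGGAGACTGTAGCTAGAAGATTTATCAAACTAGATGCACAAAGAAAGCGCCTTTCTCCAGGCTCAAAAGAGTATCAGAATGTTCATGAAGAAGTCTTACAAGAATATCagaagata

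How reads that match both were counted is not given in the sources used here, so the value of ELL2P1, and to a small extent that of ELL2, is uncertain. For LARP7, 47 stretches (2.31%) occur in a long noncoding RNA on chromosome 7. MEPCE differs from the others, as 71.1% of its stretches also belong to a protein-coding gene of GENCODE release 44 without a symbol that overlaps it on the same strand and shares 2067 exonic bases with it. That gene had no value here, and its part in the level of MEPCE was not tested. On the opposite strand ZCWPW1 shares 203 exonic bases with MEPCE and was at 1.83 log2 CPM.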

How the data were processed

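RNA was sequenced from the Fluc derivative of MDA-MB-231, in 2 cordycepin and 2 DMSO samples. Per the paper's methods, reads were mapped to GRCh38.p13 and counted with rsubread. The submitters' processing notes instead name hg38, TopHat, HTSeq, DESeq and Cufflinks, without roles, and which of them made the table could not be settled. The authors' deposited table gives 1 mean log2 CPM per gene, scaled by library size and pooled over libraries, with a gene length. Its remaining 4 columns of values hold the authors' own comparison (fold changes, F values and p-values before and after adjustment) and were not used, and it has 0 columns per sample. Depth per library is therefore unknown and no test was made, which replaces the count test planned for values per library.

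The 10 members and the pathway and marker lists, which give the genes named, were chosen with earlier results of these data known. ELL2P1 and ZCWPW1 were named after their values were seen. Level per length was the log2 CPM less log2 of the length in kb. GENCODE release 44 (99.7% of IDs matched) gave lengths, exons and transcripts, and RefSeq the promoters. The longest-run step was tested on simulated sequences, and the percentile calculation on the levels of the table themselves. Alternatives were other gene lengths, protein-coding genes alone, genes above the lowest 25%, and leaving out the extreme members. Python 3.11.15, pandas 2.3.3, numpy 2.4.6, scipy 1.17.1 and matplotlib 3.10.9 were used.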

Additional observations from a re-analysis of the deposited data

How the results depend on the processing

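The median level per length of the 10 genes was 3.54 log2 CPM per kb with the length in the table, 4.71 with the coding length, 3.82 with the longest transcript and 3.98 with the canonical transcript, the last chosen after seeing the data. The shift was upward because each of these lengths is shorter than the gene model or equal to it. The GENCODE exonic length went the other way for LARP7, MEPCE and AFF1, where it is longer, and put LARP7 at 2.44 instead of 3.46 log2 CPM per kb. The median level was 5.66 log2 CPM, or 5.61 without NELFB, the highest by level, and 5.71 without ELL, the lowest. The median percentile of 68.4 among all genes was 63.8 among protein-coding genes and 57.9 among genes above the lowest 25%, as low genes drop out of the ranking. No paired analysis was possible because the result comes from no test and the table gives no value per replicate. For the same reason, other normalizations, a filter on low counts, another pseudocount and leaving out a replicate could not be run, and depth limits every value to an unknown extent.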

Other observations

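Of the 40 other pathway genes listed, which include the partners already described, 35 had a value, and 27 of these were above the table median of 4.58 log2 CPM. Their median per length was 3.35 log2 CPM per kb, compared with 3.54 for the 10 genes. The list holds 5 genes whose products are known to act in the release of P-TEFb from the 7SK particle. The phosphatase subunit PPP1CA was at 6.79 log2 CPM per kb, the RNA helicase gene DDX21 at 6.61 and the splicing factor gene SRSF2 at 6.26. The phosphatase genes PPM1G and PPM1A were at 5.92 and 2.59 log2 CPM per kb.

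The 6 genes of the PAF1 complex, which acts on polymerase after release, lay between 2.14 (WDR61) and 4.75 (PAF1) log2 CPM per kb. For the elongation kinases the values were 2.90 for CDK12, 1.01 for CDK13 and 1.64 for their cyclin gene CCNK. As a further yardstick, 29 Mediator subunit genes, named MED and a number with or without a final L, had a median of 2.81 log2 CPM per kb. The 16 genes named POLR2 and a letter from A to L, with or without a digit after it, had 4.14. These medians are descriptions of the authors' pooled means, with no test between groups.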
